A study of Mus musculus with 8 samples.

Results

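The L1 elements outside the young L1Md group were followed in the RNA of mouse embryonic stem cells (mESCs) that had lost Setdb1, had been treated with UNC0642, or both. A repeat subfamily was taken when its family was L1 and its name did not start with L1Md, a rule that used no measured value. This gave 127 of the 133 L1 subfamilies in the count tables, which held 1153 repeat subfamilies and 24062 genes in all. By name, 32 were rodent subfamilies (names starting with Lx, L1_M or L1VL), 87 were older subfamilies (L1M or L1P) and 8 had other names (HAL1, HAL1M8, HAL1ME, HAL1_SS, HAL1b, MusHAL1, L1_Rod and X9_LINE). Of these, 121 had enough counts to be tested (32 rodent, 83 older and 6 other). L1M2a1 had no count in any library, and L1M2b, L1M3a, L1PB4, HAL1_SS and X9_LINE had at most 11 counts in any library and were not tested.

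L1 elements are retrotransposons that copy themselves through an RNA intermediate, and successive waves of L1 copies have been left in mammalian genomes. The L1Md subfamilies include the copies that still move in the mouse, the Lx subfamilies spread in the ancestors of murine rodents, and many L1M copies were inserted before the main groups of placental mammals separated and have since decayed. SETDB1 is the methyltransferase that places H3K9me3 on many retrotransposons in mESCs, and G9a and GLP place H3K9me2. The paper reports that part of H3K9me2 also depends on SETDB1. UNC0642 blocks the catalytic activity of G9a and GLP.

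All 8 libraries were poly(A) RNA-seq of the #33-6 mESC line, in which Setdb1 can be deleted by 4-hydroxytamoxifen (4-OHT), with 2 libraries in each of 4 conditions. WT cells received no treatment, and no vehicle is named for them. UNC0642 cells received 2 µM UNC0642 for 3 days. Setdb1 KO cells received 800 nM 4-OHT for 5 days. UNC0642-treated Setdb1 KO cells are labelled with 2 days of 800 nM 4-OHT followed by 3 days of 2 µM UNC0642, while the study's methods give 5 days of 4-OHT for the deletion. All groups share the 1 conditional line, so 4-OHT itself and the loss of Setdb1 cannot be told apart. If the labels hold, the combination and the Setdb1 KO differ in the time of 4-OHT as well as in UNC0642. These 2 differences cannot be told apart either.

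Total counts ran from 11702590 to 26807807 per library. Setdb1 was at 169 and 127 CPM (counts per 1000000 counts of the scaled library) in WT, 130 and 86.3 in UNC0642, 47.3 and 51.0 in Setdb1 KO and 61.1 and 34.1 in UNC0642-treated Setdb1 KO cells. Both deleted conditions lay below the other 4 libraries, by 1.59 ± 0.44 (SE) and 1.64 ± 0.44 on the log2 scale against WT, and RNA counted over Setdb1 was not gone. Neither difference passed edgeR's test without a replicate term (adjusted p = 0.181 and 0.0746), and both passed with one (adjusted p = 0.0164 and 0.00593). The 8 pluripotency markers summed to between 2677 and 5424 CPM in every library, and the 5 fibroblast markers to between 3.81 and 17.99 CPM. Markers of primitive endoderm summed to 10.4 to 58.3 CPM, of trophectoderm to 5.11 to 44.1 and of primed or mesoderm cells to 6.80 to 28.9. The 5 two-cell-stage markers (Zscan4c, Zscan4d, Zfp352, Tcstv1 and Tcstv3) summed to 6.96 and 19.6 CPM in WT, 604 and 182 in UNC0642, 288 and 106 in Setdb1 KO and 1074 and 454 in UNC0642-treated Setdb1 KO cells. They were thus higher than WT in the same conditions as the L1 subfamilies described here, but higher with UNC0642 than in Setdb1 KO. The rodent L1 names stood higher in Setdb1 KO than with UNC0642 in both replicates. The part of the two-cell-stage markers in the L1 results was not tested. In bulk RNA, more cells of one kind and more RNA per cell cannot be told apart.

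The summed level of the rodent names was higher in every treated library than in the WT library of the same replicate number. Rodent names summed to 2614 and 1531 CPM in the WT libraries (replicates 1 and 2), 4228 and 2163 in UNC0642, 9179 and 3645 in Setdb1 KO, and 13386 and 5981 in UNC0642-treated Setdb1 KO cells. These are 1.62 and 1.41 times the WT library of the same number for UNC0642, 3.51 and 2.38 times for Setdb1 KO, and 5.12 and 3.91 times for the combination. The older names summed to 1611 and 797 CPM in WT, 1978.5 and 927 in UNC0642, 2760.4 and 1439.5 in Setdb1 KO, and 2752 and 1483 in the combination. For older names the multiples of WT were thus 1.71 and 1.81 in Setdb1 KO and 1.71 and 1.86 in the combination, close to each other, whereas the rodent names stood higher in the combination than in the Setdb1 KO in both replicates.

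The ratio of rodent to older counts within a library does not depend on the scaling of libraries. It was 1.62 and 1.92 in WT, 2.14 and 2.33 in UNC0642, 3.33 and 2.53 in Setdb1 KO and 4.86 and 4.03 in UNC0642-treated Setdb1 KO cells. No 2 conditions overlapped in this ratio. The members together made up 0.425% and 0.263% of all counts in WT, 0.597% and 0.381% in UNC0642, 1.08% and 0.576% in Setdb1 KO and 1.34% and 0.793% in the combination. Their share of the counts on repeat subfamilies went the other way, from 11.5% and 9.51% in WT to 7.84% and 6.94% in the combination, while all repeat subfamilies together went from 3.70% and 2.77% of counts to 17.1% and 11.4%. The 6 L1Md subfamilies held 0.321 and 0.430 counts for each count on a member in WT and 2.98 and 2.39 in the combination.

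**Figure D1:**
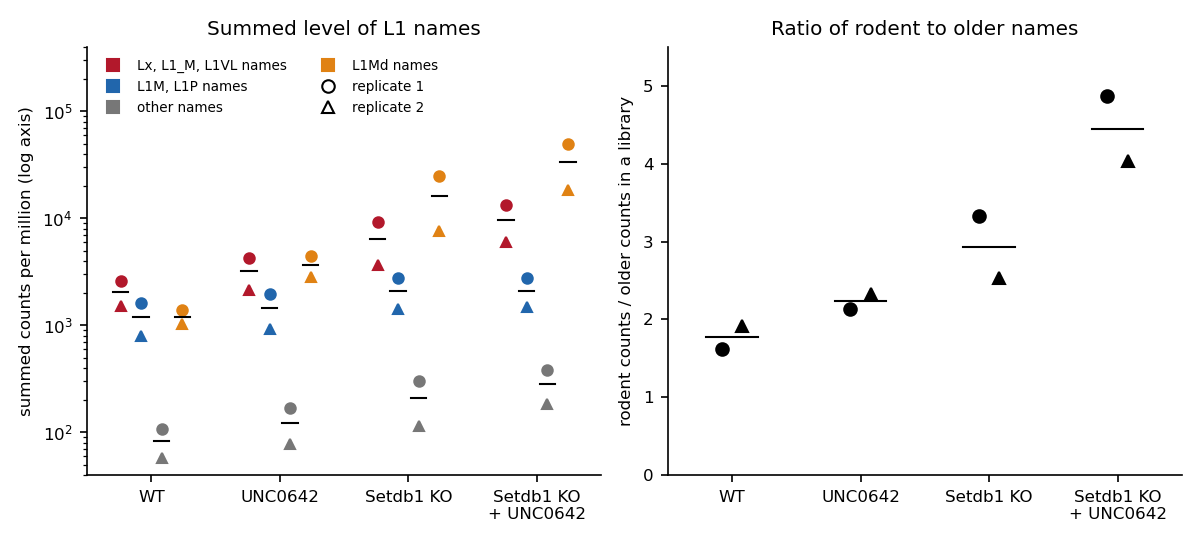
Left, summed CPM of the rodent, older, other and L1Md names in each library on a log axis, with circles for replicate 1, triangles for replicate 2 and a bar at the mean of 2 libraries. Right, counts on rodent names divided by counts on older names in each library, which runs from 1.62 and 1.92 in WT to 4.86 and 4.03 in UNC0642-treated Setdb1 KO cells.

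The Setdb1 KO was compared with WT to ask which L1 subfamilies change in RNA when Setdb1 is deleted. H3K9 methylation was not examined here. All 32 rodent subfamilies had a log2 fold change above 0, from 0.42 in Lx2B to 2.50 in L1_Mm, with a median of 1.65. The older names had a median of 0.71 and ranged from -0.43 to 2.44, with 79 of 83 above 0. Both medians stood above that of the 15313 genes tested (-0.06), but the older names stood below the median of all 932 repeat subfamilies tested (0.96). By replicate number, the medians were 1.91 and 1.18 for rodent and 0.77 and 0.59 for older names. Rodent minus older came to 0.94.

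Without a replicate term, edgeR called 0 members higher in the Setdb1 KO (adjusted p under 0.05), where 1.11% of all features and 4.94% of subfamilies were called, and 28 members had an unadjusted p under 0.05. The replicate numbers were taken as pairs, and a fit blocked on the replicate number called 39 members higher, 37 of them more than 2-fold. In that fit 3.8% of all features and 20.3% of subfamilies were called. The 39 were 29 of 32 rodent names, 8 of 83 older names (L1M2, L1MA10, L1MA4A, L1MA6, L1MB3, L1MB4, L1MB7 and L1MD1), L1_Rod and MusHAL1. Lx2B, Lx5b and Lx8 were the rodent names not called. No member was called lower in either fit, and 0% of subfamilies were. Of all features, 0.492% were called lower with the block and 0.00616% without it. DESeq2 without the block called 8 members, beside 13.2% of subfamilies, and all 8 were among the 39. Leaving out 1 library, the blocked fit called between 12 (without Setdb1 KO replicate 1) and 32 (without WT replicate 2). It gave 18 without UNC0642 replicate 2, 22 without WT replicate 1 or Setdb1 KO replicate 2, 23 without combination replicate 2 and 25 without UNC0642 replicate 1. Both Setdb1 KO libraries lay above both WT libraries for 28 of 32 rodent and 15 of 83 older names, beside 17.5% of all features and 52.7% of subfamilies. These tallies compare groups of unequal level. A mean of at least 20 CPM, a limit set after seeing the data, was reached by 30 of 32 rodent and 30 of 83 older names. At that level the block called 27 of 30 rodent and 6 of 30 older names, with median log2 fold changes of 1.61 and 0.67. Both Setdb1 KO libraries lay above both WT libraries for 26 and 3 of them.

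UNC0642 was compared with WT to ask what inhibition of G9a and GLP does alone. The differences were smaller. The rodent names had a median log2 fold change of 0.66, with 31 of 32 above 0, and the older names one of 0.31, with 73 of 83 above 0. The median was -0.04 for all genes and 0.35 for all subfamilies. Lx3_Mus had the highest value of the rodent names, 1.53 ± 0.72 (SE). Its level was 33.3 and 18.9 CPM in WT and 110 and 40.1 in UNC0642, so that both treated libraries lay above both WT libraries.

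No member was called by edgeR with UNC0642 alone, with the block (0 of 121, smallest adjusted p = 0.0999, in Lx3_Mus) or without it (0 of 121, smallest adjusted p of 1). The unadjusted p was under 0.05 for 25 members with the block and for 0 without it. The share of features called higher was 0.166% with the block and 0% without it, and 0% of subfamilies were called higher or lower in either fit. DESeq2 called 0 members without the block, beside 0.443% of subfamilies, and 1 with it, Lx3_Mus, beside 1.66% of subfamilies. Both UNC0642 libraries lay above both WT libraries for 7 rodent and 7 older names, beside 13.7% of all features and 23.2% of subfamilies. Among names with a mean of at least 20 CPM this held for 6 of 30 rodent and 0 of 30 older names.

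For rodent names, the median difference from WT was higher in the combination than with either treatment alone. For older names it was 0.78 in the combination, close to the 0.71 in the Setdb1 KO. In replicate 1 the older median was not higher in the combination than in the Setdb1 KO. With scaling factors from repeat subfamilies alone it was lower (-0.26 beside -0.18). The 6 other names tested had a median of 0.80 in the Setdb1 KO and 0.69 in the combination. All 32 rodent names had a log2 fold change above 0, from 0.85 in Lx2B to 3.97 in Lx3_Mus, with a median of 2.15. The older names had a median of 0.78, with 74 of 83 above 0 and a range from -0.84 in L1M6B to 2.61 in L1MEi. The median was -0.06 for all genes and 1.11 for all subfamilies, so the older names again stood below the median subfamily. By replicate number, the medians were 2.40 and 1.82 for rodent and 0.76 and 0.74 for older names. Both libraries of the combination lay above both WT libraries for 32 of 32 rodent names and 27 of 83 older names, beside 22.3% of all features and 62% of subfamilies. L1ME3D was the 1 member with both below, beside 21.1% of all features and 1.72% of subfamilies.

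Without the block, edgeR called 6 members higher against WT, all more than 2-fold and all rodent names, where 3.6% of all features and 12.1% of subfamilies were called. They were Lx3C, Lx3_Mus, Lx, Lx10, L1_Mm and L1_Mus2. A further 32 members had an unadjusted p under 0.05 only. The calls were lost (0 members) without WT replicate 1, without WT replicate 2 or without replicate 1 of the combination, and came to 10 without either Setdb1 KO library. With the block, 56 members were called higher, 47 of them more than 2-fold, where 9.98% of all features and 41.1% of subfamilies were called. These were all 32 rodent names, 22 of 83 older names, L1_Rod and MusHAL1. They held all 39 members called in the Setdb1 KO and all 27 called by DESeq2 without the block, where 21.3% of subfamilies were called. Leaving out 1 library gave a blocked count between 40 and 50, except that it was 30 without replicate 2 of the combination. No member was called lower with or without the block, and 0% of subfamilies were. Of all features, 7.19% were called lower with the block and 0.505% without it.

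**Figure D2:**
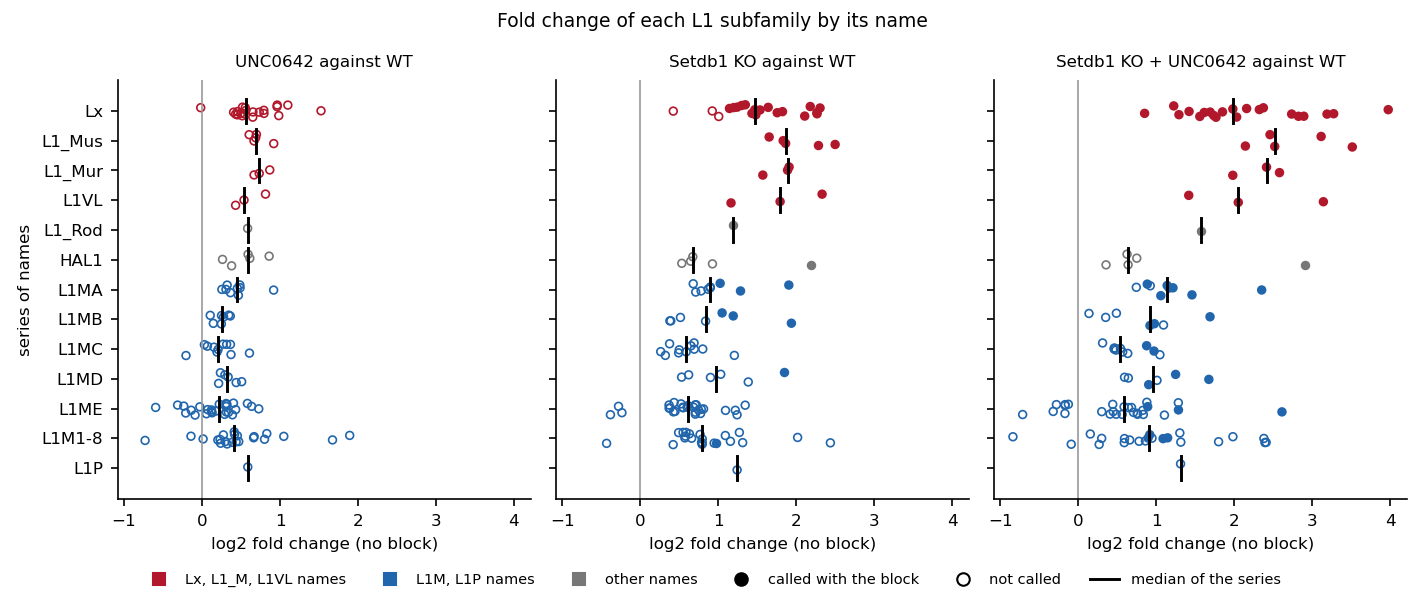
Log2 fold change of each tested subfamily against WT without the block, for UNC0642, Setdb1 KO and their combination, in 13 series of names. Each circle is 1 subfamily, filled where the fit with the replicate block called it, and the black line is the median of the series. The rodent series (Lx, L1_Mus, L1_Mur and L1VL) have medians of 1.98 to 2.52 in the combination. The older series (L1MA to L1P) have medians of 0.54 to 1.31, the highest in L1P. That series holds only L1P5 as a tested name, on 8 and 3 counts in WT and 15 and 10 in the combination.

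Among the rodent names, Lx3_Mus had the steepest course. Its level was 33.3 and 18.9 CPM in WT, 110 and 40.1 in UNC0642, 187 and 63.9 in Setdb1 KO and 596 and 224 in the combination. In each replicate the 4 conditions kept this order, while WT replicate 1 and UNC0642 replicate 2 lay close together. Its log2 fold change against WT was 2.27 ± 0.74 in the Setdb1 KO (SE, adjusted p = 0.29, and 0.00321 with the block) and 3.97 ± 0.80 in the combination (adjusted p = 0.0261, and 0.000185 with the block), by edgeR's quasi-likelihood test.

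L1_Mm was at 55.8 and 31.8 CPM in WT, 94.4 and 46.7 in UNC0642, 372 and 123 in Setdb1 KO and 748 and 251 in the combination. It had the highest fold change of any member in the Setdb1 KO, 2.50 ± 0.73 (edgeR adjusted p = 0.214, and 0.0027 with the block), and 3.51 ± 0.76 in the combination (adjusted p = 0.0363). L1_Mus2 followed the same order of conditions in both replicates, with 82.3 and 48.7 CPM in WT and 833 and 299.9 in the combination, a log2 fold change of 3.11 ± 0.73 (edgeR adjusted p = 0.0496).

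Lx, which gives the Lx names their prefix, was at 114 and 60.9 CPM in WT, 192 and 99.97 in UNC0642, 600 and 267 in Setdb1 KO and 1059 and 540.2 in the combination. The 2 deleted conditions overlapped neither WT nor UNC0642. Its log2 fold change in the combination was 3.19 ± 0.65 (edgeR adjusted p = 0.0275). Lx10 went from 21.4 and 12.9 CPM in WT to 153 and 75.6 in the combination, and Lx3C from 17.6 and 11.2 to 122 and 81.0. Their log2 fold changes were 2.74 ± 0.56 and 2.82 ± 0.55 (edgeR adjusted p = 0.0283 and 0.0227). Lx3B stood lower, at 2.32 ± 0.62, and was called with the block only (adjusted p = 0.00192).

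The rodent names with the most counts were L1_Mus1, L1_Mus3, Lx and Lx8. L1_Mus1 was at 339 and 252 CPM in WT, 588 and 349 in UNC0642, 1298 and 561 in Setdb1 KO and 1738 and 868 in the combination, a log2 fold change of 2.14 ± 0.60 against WT (edgeR adjusted p = 0.0887, and 0.00185 with the block). L1_Mus3 reached 1698 and 646 CPM from 271 and 155, a log2 fold change of 2.46 ± 0.73 (adjusted p = 0.103, and 0.00108 with the block). Lx8 was among the least changed, with 226 and 140 CPM in WT and 544 and 311 in the combination, 1.22 ± 0.54 (adjusted p = 0.272, and 0.00869 with the block).

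Lx2B had the lowest value of the rodent names in all 3 comparisons with WT. It was at 88.2 and 34.3 CPM in WT, 79.4 and 41.6 in UNC0642, 111 and 53.5 in Setdb1 KO and 130 and 90.2 in the combination. The Setdb1 KO and UNC0642 libraries overlapped WT, and its log2 fold change in the combination was 0.85 ± 0.58 (edgeR adjusted p = 0.51, and 0.0344 with the block). The related names Lx2A and Lx2A1 were at 3.27 and 2.89, so the Lx2 names did not move alike. L1VL4 (3.14) and L1VL2 (1.42) differed likewise within the L1VL names. Lx2B, Lx2A, Lx2A1, L1VL4 and L1VL2 were named after their values were seen.

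**Figure D3:**
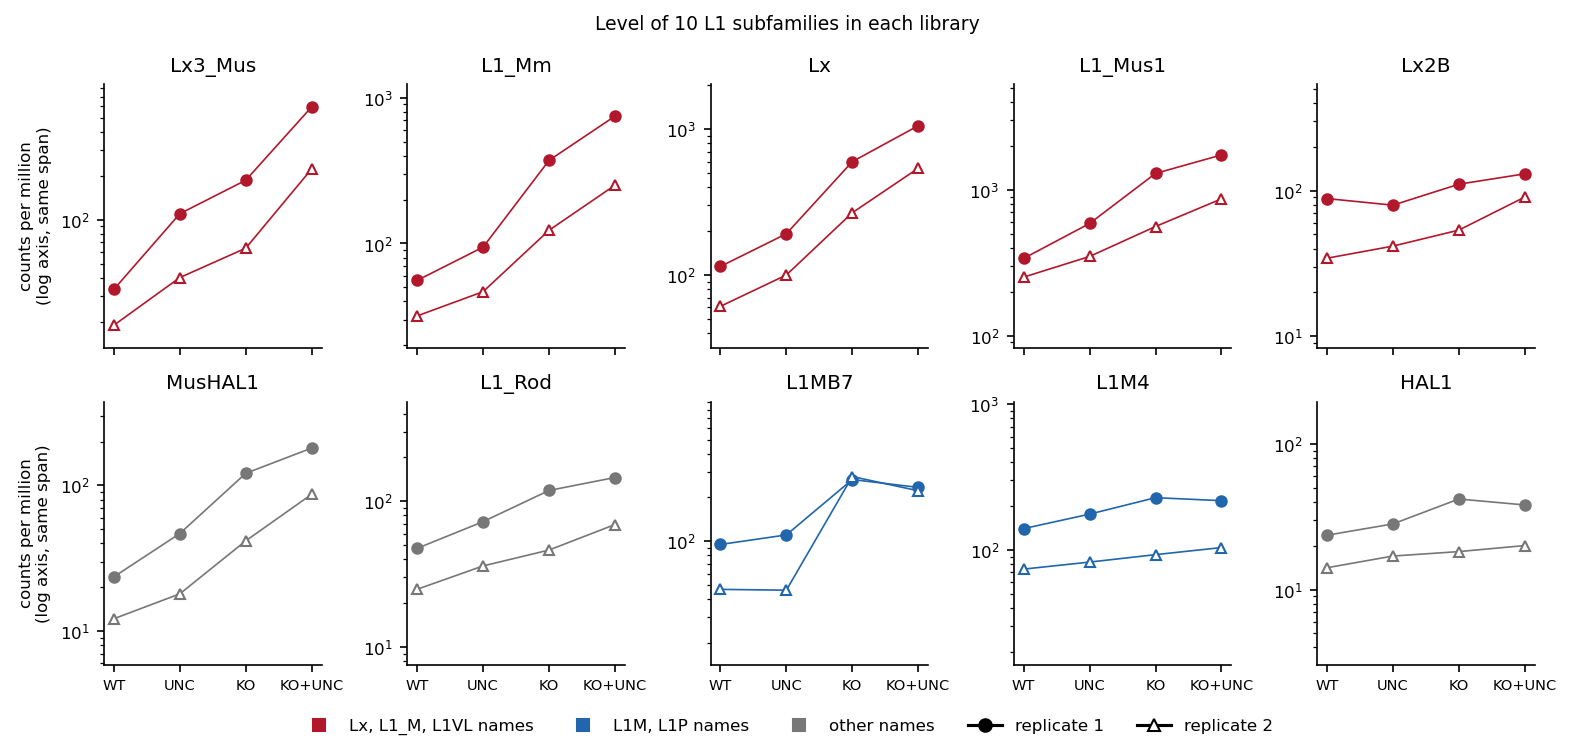
Level of 10 subfamilies in CPM in the 4 conditions, with filled circles for replicate 1 and open triangles for replicate 2. Each panel has a log axis of the same span. Lx3_Mus, L1_Mm, Lx and MusHAL1 climb steeply from WT to UNC0642-treated Setdb1 KO (KO+UNC) in both replicates, L1M4 and HAL1 stay within a narrower range, and L1MB7 is high in both deleted conditions with nearly equal replicates.

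The older names with the most counts were L1MB7, L1M4, L1M5 and L1M2. Among these names, L1MB7 stood apart from the others. It was at 95.1 and 46.8 CPM in WT, 111 and 46.2 in UNC0642, 266 and 278 in Setdb1 KO and 235 and 222 in the combination. All 4 libraries of the deleted conditions lay above all 4 others, which also held for the older names L1MB3 and L1MD1. In the deleted conditions replicate 1 of L1MB7 stood at 0.954 and 1.05 times replicate 2, where the median older name stood at 2.20 and 2.04 times. Its log2 fold change was 0.14 ± 0.51 with UNC0642, 1.94 ± 0.53 in the Setdb1 KO (edgeR adjusted p = 0.179, and 0.0169 with the block) and 1.69 ± 0.53 in the combination (adjusted p = 0.122, and 0.0137 with the block). Its fold change in the Setdb1 KO was thus in the range of the rodent names. For L1MB7 the combination stood below the Setdb1 KO (-0.25 on the log2 scale), where all 32 rodent names and 50 of 83 older names stood above it. Without L1MB7 the median of the older names was 0.71 in the Setdb1 KO and 0.77 in the combination.

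L1M4 was at 140.1 and 73.8 CPM in WT, 176 and 82.5 in UNC0642, 228 and 92.8 in Setdb1 KO and 218 and 104 in the combination. The replicate gap was larger than the differences between conditions, and its log2 fold change in the combination was 0.59 ± 0.62 (edgeR adjusted p = 0.71, and 0.109 with the block). L1M5 had the same value, 0.59 ± 0.62 (adjusted p = 0.71, and 0.0761 with the block), from 124 and 53.9 CPM in WT to 179.9 and 88.2. L1M2 was at 101 and 44.1 CPM in WT and 204 and 103 in the combination, 1.09 ± 0.66 (adjusted p = 0.447), and was called with the block in the Setdb1 KO and in the combination (adjusted p = 0.048 and 0.0118).

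L1MD1 went from 10.6 and 6.42 CPM in WT to 34.7 and 26.0 in Setdb1 KO and 33.3 and 20.9 in the combination, so that the deleted conditions did not overlap WT. Its log2 fold changes were 1.84 ± 0.55 and 1.67 ± 0.55 (edgeR adjusted p = 0.231 and 0.141, and 0.00951 and 0.00756 with the block). L1MEi had the highest value of the older names in the combination, 2.61 ± 0.84 (adjusted p = 0.13, and 0.00637 with the block), on 19 and 14 counts in WT and 82 and 118 in the combination. L1M6, L1M3b and L1M3c were among the older names with the smallest p-values with UNC0642 and rested on few reads. Both WT libraries lay below the level needed for testing, so these names passed the low-count filter only through treated libraries. The same held for the older names L1M3d, L1MEg1 and L1MEg2, with 4 and 4, 5 and 6, and 5 and 2 counts in WT. The difference of all these names from WT, and their part in the numbers of older names above 0, is therefore partly set by that filter. L1M6 had 3 and 5 counts in WT, 19 and 14 in UNC0642, 26 and 12 in Setdb1 KO and 16 and 19 in the combination. L1M3b had 0 and 5 counts in WT and at most 23 elsewhere, and L1M3c 3 and 8 in WT and at most 18 elsewhere, and none of these was called with the block.

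Among the other names, MusHAL1 and L1_Rod lay within the range of the rodent names in the combination, and HAL1, HAL1b, HAL1M8 and HAL1ME lay below the lowest rodent name (0.85). HAL1 names mark shortened elements derived from L1. MusHAL1 was at 23.6 and 12.2 CPM in WT, 46.8 and 18.02 in UNC0642, 121 and 41.6 in Setdb1 KO and 181 and 87.0 in the combination, 2.91 ± 0.72 on the log2 scale (edgeR adjusted p = 0.0582, and 0.000405 with the block). HAL1 was at 23.6 and 14.1 CPM in WT and 38.1 and 20.03 in the combination, 0.62 ± 0.57 (adjusted p = 0.652, and 0.143 with the block). HAL1b stood at 0.75 ± 0.78 (adjusted p = 0.706, and 0.236 with the block). L1_Rod went from 47.5 and 24.9 CPM to 146 and 69.2, 1.57 ± 0.63 (adjusted p = 0.224, and 0.00378 with the block).

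The medians of the series of older names were not tested against each other. In the combination the median log2 fold change was 1.14 for the 9 L1MA names, 0.92 for the 7 L1MB names, 0.54 for the 11 L1MC names, 0.96 for the 6 L1MD names, 0.59 for the 27 L1ME names and 0.90 for the 22 tested L1M1 to L1M8 names. The block called 7 of 9 L1MA names and 3 of 27 L1ME names, beside 9.98% of all features and 41.1% of subfamilies. Some L1ME names had few counts, for example at most 16 in L1MEg1 and 12 in L1MEg2 in any library. Of the 9 older names below 0 in the combination, 7 were L1ME names, among them L1ME3B, L1ME3C, L1ME3D, L1ME3E and L1ME3G, which were singled out after their values were seen. Among rodent names the medians were 1.98 for the 21 Lx, 2.52 for the 5 L1_Mus (L1_Mm included), 2.41 for the 3 L1_Mur and 2.05 for the 3 L1VL names.

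Rodent minus older median was 0.35 with UNC0642, 0.94 in the Setdb1 KO and 1.37 in the combination over all tested members. The 6 L1Md subfamilies stood above both, with medians of 1.25, 3.36 and 4.18 in the 3 comparisons, and all 6 were called with the block in the Setdb1 KO and in the combination. The 35 SINE subfamilies tested had medians of 0.16, 0.41 and 0.23, the 159 DNA transposon subfamilies of 0.28, 0.62 and 0.51, and the 571 LTR subfamilies of 0.39, 1.18 and 1.38. The older L1 names (0.31, 0.71 and 0.78) thus lay between DNA transposons and LTR elements. These positive values of the older names depended on the scale: with scaling factors taken from repeat subfamilies alone their medians were -0.07, -0.18 and -0.26, and those of the rodent names 0.27, 0.64 and 1.01, while the median gene stood at -0.40, -0.90 and -1.11.

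**Figure D4:**
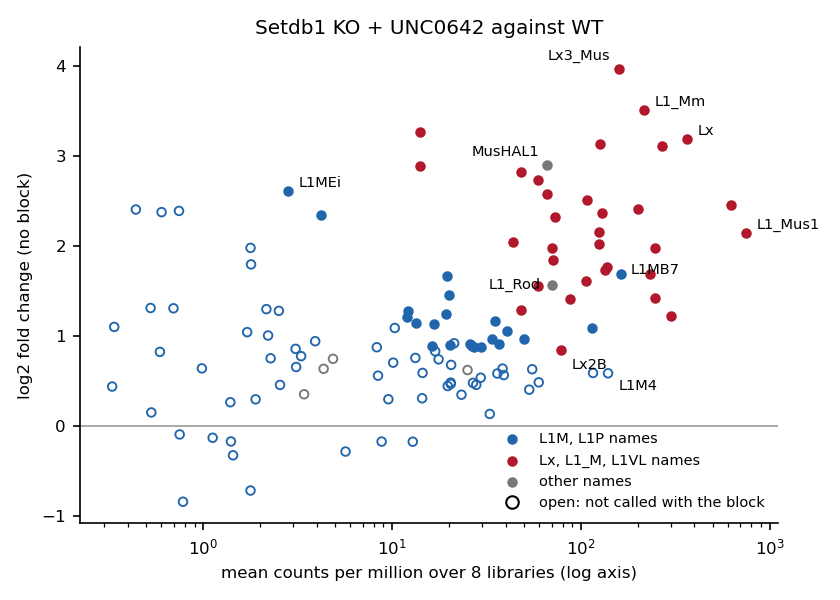
Log2 fold change of each tested member in UNC0642-treated Setdb1 KO cells against WT, without the block, by its mean CPM over 8 libraries on a log axis. Filled circles were called with the replicate block. The 32 rodent names lie between 0.85 and 3.97 and the 83 older names between -0.84 and 2.61, with L1MB7 at 1.69.

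The combination was also compared with each treatment alone. Against UNC0642 alone, the median log2 fold change was 1.49 for rodent names (32 of 32 above 0) and 0.45 for older names (73 of 83 above 0). Without the block 0 members were called by edgeR, beside 1.13% of all features and 5.36% of subfamilies, and 23 had an unadjusted p under 0.05. With the block 32 were called higher, beside 3.82% of all features and 18.8% of subfamilies. They were 27 rodent names, the older L1MA4A, L1MB7 and L1MEi, and L1_Rod and MusHAL1, and all 32 were also called against WT. DESeq2 without the block called 8, beside 12.2% of subfamilies. The blocked count fell to 6 without UNC0642 replicate 1, 4 without UNC0642 replicate 2, 11 without combination replicate 1 and 10 without combination replicate 2. With all libraries, the block called 25 of 30 rodent and 2 of 30 older names with a mean of at least 20 CPM.

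Against the Setdb1 KO alone, all 32 rodent names had a log2 fold change above 0, with a median of 0.53 and the highest value, 1.71, in Lx3_Mus. The older names had a median of 0.06, with 50 of 83 above 0, a sign that turned with libraries scaled by total counts (-0.05) or by repeat subfamilies (-0.10). No member was called by edgeR, without the block (0% of all features and 0% of subfamilies, 1 member at an unadjusted p under 0.05) or with it (0.123% of all features and 0.215% of subfamilies, 19 members at an unadjusted p under 0.05, smallest adjusted p = 0.0557). DESeq2 called 0 without the block, beside 0.317% of subfamilies, and 4 with it (Lx3_Mus, Lx3C, Lx and L1_Mm), beside 3.02% of subfamilies. Rodent minus older was 0.47. By the labels, the 2 conditions compared differ in the time of 4-OHT as well as in UNC0642.

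The interaction asks whether the effect of UNC0642 differs between Setdb1 KO and WT cells. It had a median of -0.13 for rodent and -0.27 for older names on the log2 scale, against median standard errors of 0.86 and 0.94. The direction for rodent names was not stable, since 9 of 32 were above 0 without the block, the medians by replicate number were -0.24 and 0.16, and with scaling factors from repeat subfamilies alone the median turned to 0.12 with 28 of 32 above 0. No member was called by edgeR with or without the block or by DESeq2, the share called was 0% of all features and 0% of subfamilies in both edgeR fits, and no member had an unadjusted p under 0.05. A difference between the effects was not detectable with 2 libraries in each condition, and its absence is not shown.

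The replicates differed as much as some conditions. Replicate 1 was above replicate 2 in all 4 conditions for 32 of 32 rodent, 69 of 83 older and 6 of 6 other names, beside 67.8% of subfamilies and 24.2% of all features. The median ratio of replicate 1 to replicate 2 was 1.71 in WT, 1.99 in UNC0642, 2.54 in Setdb1 KO and 2.09 in the combination for rodent names, and 1.97, 2.12, 2.20 and 2.04 for older names. L1MB7 was the only 1 of the 14 older exceptions with a mean above 20 CPM. The nuclear RNAs Malat1 and Neat1 moved in different ways. Malat1 was at 302 and 112 CPM in WT, 252 and 159 in UNC0642, 414 and 226 in Setdb1 KO and 396 and 197 in the combination, always higher in replicate 1. Neat1 was lower in replicate 1 in all conditions, for example 14.3 against 101 CPM in UNC0642. The 6 nuclear RNAs listed (Malat1, Neat1, Meg3, Kcnq1ot1, Airn and Tsix) summed to 141 to 330.3 CPM in WT, 278 to 294 in UNC0642, 351 to 497 in Setdb1 KO and 309 to 486 in the combination. Of the 5 tested, edgeR called 0 without the block in the Setdb1 KO or the combination and 3 higher with it in each, where 3.8% and 9.98% of all features were called higher. The part of nuclear RNA in the results on L1 names was not tested.

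**Figure D5:**
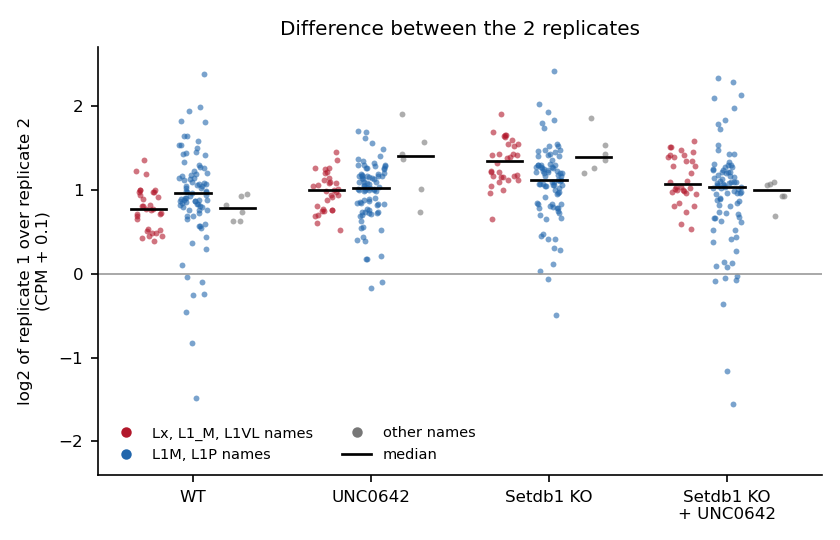
Log2 of replicate 1 over replicate 2 for each tested member in each condition, on CPM plus 0.1, with the median of each group of names as a black line. The medians lie above 0 in every condition for the rodent, older and other names, as do all 32 rodent names.

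Genes that act on L1 or place H3K9 methylation were given by a list of 36, all of them in the files and tested. Against WT, edgeR without the block called 1 of 36 higher and 0 lower in the Setdb1 KO and in the combination, where the higher gene was Mael, a factor of the piRNA pathway that acts on transposons in germ cells. In that fit 1.11% and 3.6% of all features were called higher and 0.00616% and 0.505% lower. With the block, 3 were higher (Mael, Atf7ip and Piwil2) and 2 lower (Setdb1 and Piwil4) in the Setdb1 KO, where 3.8% of all features were called higher and 0.492% lower. In the combination 3 were higher (Mael, Atf7ip and Tex19.1) and 5 lower (Setdb1, Ehmt2, Mov10, Samhd1 and Apobec3), where 9.98% of all features were called higher and 7.19% lower. Setdb1 is the deleted gene itself. Ehmt2 encodes G9a, a target of UNC0642, and its log2 fold change in the combination was -1.29 (edgeR adjusted p = 0.185, and 0.0235 with the block). Mael was at 5.92 and 6.42 CPM in WT, 4.79 and 5.25 in UNC0642, 64.1 and 77.7 in Setdb1 KO and 38.2 and 38.0 in the combination, and its log2 fold changes were 3.52 and 2.62 (edgeR adjusted p = 0.00972 and 0.00894). Atf7ip, the partner that stabilises SETDB1, was at 102 and 94.1 CPM in WT and 341 and 211 in Setdb1 KO, a log2 fold change of 1.49 that was called with the block only (edgeR adjusted p = 0.0339). Apobec3, which restricts retroelements, was at 98.4 and 109.9 CPM in WT and 47.2 and 33.6 in the combination, a log2 fold change of -1.37 that was called lower with the block (edgeR adjusted p = 0.0166). Trim28, which recruits SETDB1, stood at -0.17 and -0.08, and Mphosph8, a member of the HUSH complex, at -0.33 and -0.47, and neither was called. The summed level of the 36 genes was 7025 to 7553 CPM in WT and 4755 to 9861 in the combination.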

How the data were processed

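Poly(A) RNA-seq of 8 mESC libraries was analysed. The authors trimmed reads with Trim Galore 0.3.7, aligned them with TopHat2 to mm10 and counted genes and repeat subfamilies with TEtranscripts, so that each deposited file holds unnormalised counts of reads for every gene and subfamily. Per the study's methods TEtranscripts was run at its defaults, and which strand setting that means was not checked here. The repeat annotation is not given in the sources used here. A count sums all copies of a subfamily, so a copy read within a gene's transcript and one with its own start cannot be told apart.

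Counts were tested with edgeR 4.0.16 (TMM, filterByExpr with minimum count 10 and total 15, glmQLFit and glmQLFTest, prior count 0.125) in 1 fit of all libraries, with Benjamini-Hochberg adjustment over 15313 genes and 932 subfamilies. Levels are CPM (counts per 1000000) on TMM-scaled totals. Alternatives were DESeq2 1.42.0, the replicate block, other scalings, filter and prior count, thinning and leaving out each library, and the steps were tested on simulated data. Replicate numbers were taken as pairs because deviations from group means correlated in all 6 pairs of conditions (r from 0.285 to 0.663 over genes and 0.208 to 0.434 over subfamilies), although the labels do not say what a shared number marks. Without the block, the p-values rest on the spread between the 2 libraries of a condition, pooled over the 4 conditions and shared across features. With the block they rest on what is left of that spread after the replicate difference is removed.

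The members and lists were chosen with earlier results of these data known. Named members were the 4 with the most counts in each group of names, the 3 with the smallest p per group and comparison with WT, and all called members above 2-fold, at most 12. Sequences of the subfamilies are not used here.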

Additional observations from a re-analysis of the deposited data

How the results depend on the processing

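The difference between rodent and older medians kept its direction in all 6 comparisons and under every alternative. Leaving out 1 library, with or without the block, it ran from 0.11 to 0.50 with UNC0642, from 0.34 to 0.62 between the combination and the Setdb1 KO, and from 0.0232 to 0.417 for the interaction.

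With the replicate block the counts of members called higher went from 0 to 39 in the Setdb1 KO, from 6 to 56 in the combination against WT and from 0 to 32 against UNC0642. Setdb1 passed the test with it (-1.56 and -1.67 on the log2 scale). DESeq2 with the block gave 1 with UNC0642, 44 in the Setdb1 KO, 63 in the combination against WT, 4 against the Setdb1 KO and 43 against UNC0642. DESeq2 without it called 8, 27 and 8 (Setdb1 KO, combination against WT, combination against UNC0642) with all libraries and 8, 26 and 9 with 4. edgeR on the 4 libraries compared called 4 and 19 against WT, and no low-count filter gave 16 in the combination.

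A fit of subfamilies alone, with a scale that sets their typical change to 0, called 11 higher in the Setdb1 KO, 26 higher and 11 lower in the combination against WT, and 18 higher and 2 lower against UNC0642. With the block the same fit called 21 higher and 13 lower, 32 higher and 24 lower, and 26 higher and 15 lower, and 6 higher between the combination and the Setdb1 KO. With TMM factors from subfamilies, 0 were called in the combination, and L1M4 (-0.49), L1M5 (-0.45), HAL1 (-0.46, and -0.27 in the Setdb1 KO) and HAL1b (-0.34) turned negative.

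Leaving out 1 library with or without the block gave 0 to 1 calls with UNC0642, 0 to 32 in the Setdb1 KO, 0 to 50 in the combination against WT, 0 to 2 against the Setdb1 KO and 0 to 39 against UNC0642. Values that changed sign ranged from -0.0449 to 1.11 for L1M4 and -0.0133 to 1.304 for L1M5 in the combination, from -0.0016 to 1.13 for L1_Rod and -0.39 to 1.18 for HAL1b with UNC0642, and from -0.0485 to 1.13 for HAL1 in the Setdb1 KO. The causes were not tested. Older names with few counts, such as L1M6 and L1M3b, are limited by depth and by the low-count filter, which L1M6 and L1M3b passed only through treated libraries. The fits with the block after leaving out a library, DESeq2 with the block, subfamilies alone with the block and the limit of 20 CPM were added after seeing the data.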
